A study of Homo sapiens with 6 samples.

Results

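Genes of the lysosome were followed in OCI-AML2 cells, an established human acute myeloid leukaemia line, after knockdown of TAZ. The set was chosen by gene symbol, with earlier results of these data known, and holds 38 named genes. Among them are 6 lysosomal membrane proteins, 8 proteases and peptidases, 10 glycan-degrading enzymes, and 7 lipid-degrading enzymes and their helper proteins. The others are the transcription factor TFEB and 6 proton pump subunits and accessory proteins. Of the 38 genes, 37 were found among the 13002 genes of the deposited tables, and SGSH was not analysed here. RNA was measured by sequencing in 3 groups of 2 libraries each, lettered A and B: TAZ shRNA1, TAZ shRNA2 and a control hairpin. TAZ encodes tafazzin, a mitochondrial enzyme that remodels cardiolipin, and the comparisons ask which transcripts differ when it is lowered.

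All 3 groups, the control included, carried a hairpin delivered by lentivirus and had 3 days of puromycin selection at 2.0 µg/mL. The source labels name a scramble hairpin for the control, while the control columns of the tables carry the name GFP. The cells were infected cultures of 1 line, and no label says that A and B were separate cultures. P-values therefore set a difference between groups only against the spread of libraries within groups, a spread that may be technical. The knocked-down gene TAZ (gene ID 6901) stood at 4.02 and 4.10 RPKM (reads scaled by gene length and library depth) in shRNA1 libraries and at 1.47 and 2.13 RPKM in shRNA2 libraries, against 11.3 and 11.9 RPKM in the control. Its log2 fold change was -1.41 (SE 0.13, limma adjusted p = 0.00205) with shRNA1 and -2.41 (SE 0.18, adjusted p = 0.00245) with shRNA2. Depth ranged from 18820228 to 20977870 reads in listed genes per library. Apart from IDUA, each member had at least 140 reads in every library.

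The lysosome is an acidic compartment in which proteins, glycans and lipids delivered by endocytosis and autophagy are broken down. Its lumen is acidified by the vacuolar proton pump (V-ATPase), which has a membrane sector (V0) and an ATP-hydrolysing sector (V1), and its membrane is lined by heavily glycosylated proteins such as LAMP1 and LAMP2. TFEB and related factors bind a short palindrome, the CLEAR element, near the start of many lysosomal genes, and macrophages and monocytes are known for a high content of lysosomal enzymes.

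The DNA just before the start of 6 members is shown because these windows hold the core of the CLEAR element or an extended form of it. The sequences are from RefSeq (GRCh38.p14), 5′ to 3′ on the strand of the gene, and cover the 100 bases before the annotated start. Capitals mark every match to CACGTG, drawn out to TCACGTGA where this longer form matches, and by a further G before and C after it where both are present (the full palindrome).
LAMP1: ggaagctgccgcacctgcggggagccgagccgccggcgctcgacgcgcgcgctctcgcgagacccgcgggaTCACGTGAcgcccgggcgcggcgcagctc
CTSA: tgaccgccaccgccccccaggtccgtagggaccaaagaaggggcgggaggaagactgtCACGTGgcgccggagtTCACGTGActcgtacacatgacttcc
CTSD: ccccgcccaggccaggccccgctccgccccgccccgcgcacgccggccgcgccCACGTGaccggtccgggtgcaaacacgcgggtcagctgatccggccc
GAA: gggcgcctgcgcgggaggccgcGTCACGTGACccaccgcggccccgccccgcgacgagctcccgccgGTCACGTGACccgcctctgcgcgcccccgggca
MCOLN1: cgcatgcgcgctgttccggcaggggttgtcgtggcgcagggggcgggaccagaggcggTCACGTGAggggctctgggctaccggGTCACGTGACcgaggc
ATP6V0D1: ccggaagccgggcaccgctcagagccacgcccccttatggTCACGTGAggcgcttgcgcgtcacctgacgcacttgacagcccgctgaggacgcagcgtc
They lie at chr13:113297139-113297238 (plus strand) for LAMP1, chr20:45891235-45891334 (plus) for CTSA, chr11:1763928-1764027 (minus) for CTSD, chr17:80101481-80101580 (plus) for GAA, chr19:7522524-7522623 (plus) for MCOLN1 and chr16:67481158-67481257 (minus) for ATP6V0D1. GAA held the full palindrome at 2 places, beginning 78 and 33 bases before the start. MCOLN1 held it beginning 16 bases before the start, with a further TCACGTGA beginning 42 bases before. LAMP1 held TCACGTGA beginning 29 bases before the start, and again beginning 2 bases before it, and this second match runs across the start and is cut off here.

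The 3 motifs (CACGTG, TCACGTGA, and TCACGTGA with G before and C after it) are their own reverse complement, so that both strands give the same matches, and each longer motif contains the shorter ones. They were searched in windows of 300 bases, from 250 bases before to 50 bases after each start. Of the 37 members in the tables, 27 had a window. LAMP2, CTSB, CTSS, HEXA, NAGLU, PSAP, ASAH1, ATP6V1A, ATP6V1B2 and ATP6V1H were not analysed for motifs. TCACGTGA was present in 5 of 27 members (18.5%), beside 0.98% of all 35116 windows and 2.30% of the 10257 listed genes with a window. Among 138 other genes of the pathway with a window (lists given below), 16 held it (11.6%). The shorter CACGTG was present in 8 of 27 members (29.6%), beside 7.26% of all windows, 12.7% of listed genes and 23.9% of the other pathway genes. The additional members were CD63, CTSD and NEU1. The full palindrome was present in GAA and MCOLN1 (7.41% of members), beside 0.353% of all windows, 0.907% of listed genes and 5.8% of the other pathway genes. A match describes the letters of the window and no binding was measured.

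Most tested members had a higher value with shRNA1 (27 of 36) and with shRNA2 (35 of 37), and the members that rose differed in part. As the set was chosen with earlier results of these data known, its shares beside those of all genes are a description and no test. With shRNA1, 14 of 36 tested members rose (limma, Benjamini-Hochberg adjusted over all genes, threshold 0.05), 0 fell and 22 did not pass, beside 9.99% of all tested genes called higher and 8.58% called lower (18.6% in either direction). With shRNA2, 20 of 37 rose, 0 fell and 17 did not pass, beside 8.12% called higher and 7.61% called lower (15.7% in either direction). At an unadjusted p under 0.05, 0 members were lower with shRNA1 and 1, SCARB2, was lower with shRNA2, and limma-voom on recovered reads found 0 that fell with either hairpin. SCARB2 was called lower with shRNA2 once the gene length trend was removed (log2 fold change -0.46, adjusted p = 0.0432) and with a block on the library letter (adjusted p = 0.0453). Leaving out either shRNA1 library lowered the number of shRNA1 calls, both among members and over all genes. The median log2 fold change of members with shRNA1 was then 0.29 without shRNA1 A and 0.39 without shRNA1 B. LAMP2 alone of the 14 kept its call in all 14 alternatives. The 20 include IDUA, which reached the filter on low values only through its shRNA2 level. The median log2 fold change of the tested members was 0.37 with shRNA1 and 0.60 with shRNA2, beside -0.0005 and -0.0045 over all tested genes. The comparisons share the 2 control libraries, and 9 members rose in both, beside 4.30% of the 10501 genes tested in both. In bulk RNA, fewer cells of a type and less RNA per cell cannot be told apart. The libraries did not overlap, with the hairpin higher, for 22 of 36 members with shRNA1 (33.5% of all genes) and for 30 of 37 with shRNA2 (31.0% of all genes). They did not overlap, with the hairpin lower, for 5 members with shRNA1 (32.5% of all genes) and for 1 with shRNA2 (31.1% of all genes). In the authors' deposited table, which tests by a count model, 21 members were higher and 0 lower with shRNA1, and 28 were higher and 1 lower with shRNA2. The same deposited table calls 18.8% of genes higher and 17.1% lower with shRNA1, and 19.9% higher and 18.9% lower with shRNA2.

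**Figure D1:**
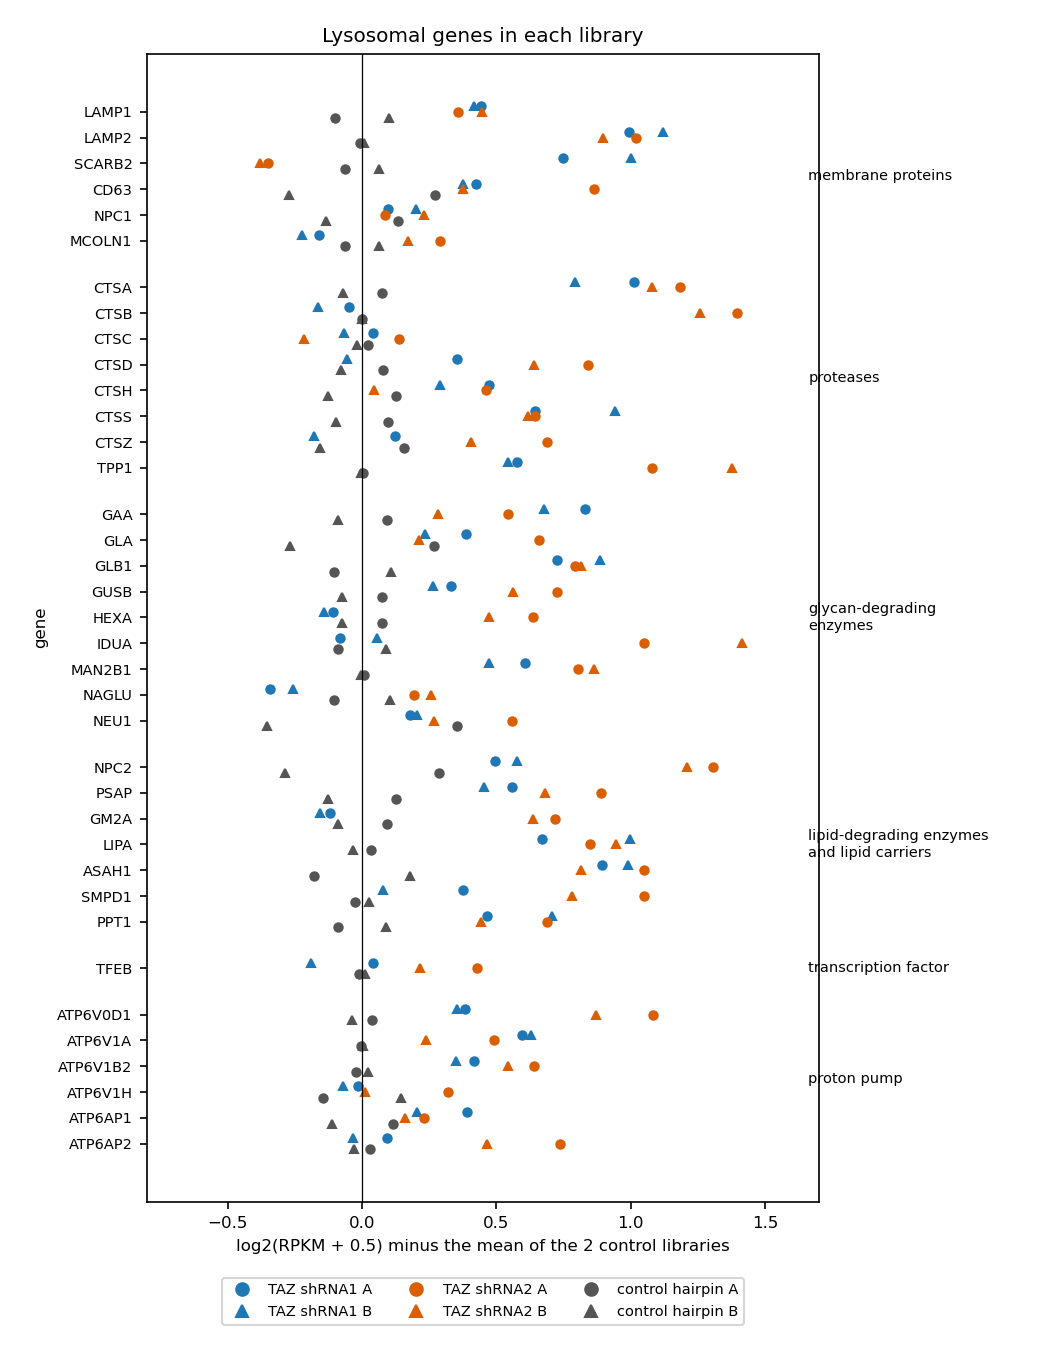
Each row is a member, grouped by role, and each point a library (circle A, triangle B, coloured by group), placed at log2(RPKM + 0.5) minus the mean of the 2 control libraries of that gene. Most members lie above the control in both hairpins (median log2 fold change 0.37 with shRNA1 and 0.60 with shRNA2), and SCARB2 is above the control with shRNA1 and below it with shRNA2.

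The level of members spanned a wide range on the RPKM scale, which is per gene length. In the control, CD63, a tetraspanin of lysosomes and exosomes, was highest with a mean of 146 ± 39.1 RPKM (SD, n = 2). It was followed by PPT1 at 95 RPKM, ATP6AP2 at 83.3 RPKM and ATP6V1B2 at 80.8 RPKM. The lowest were NPC1 at 4.04 RPKM, SMPD1 at 3.24 RPKM and IDUA at 0.516 RPKM. Of the 36 pairs of neighbours in the order of levels, 15 with shRNA1, 12 with shRNA2 and 12 in the control did not overlap between libraries, so most neighbours could not be ordered beyond their spread.

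Among the 6 membrane proteins, 3 rose with shRNA1 (beside 9.99% of all genes) and 1 rose with shRNA2 (beside 8.12% of all genes). LAMP2, which lines the lysosomal membrane and takes part in chaperone-mediated autophagy, stood at 51.6 and 56.3 RPKM in shRNA1 libraries and at 52.5 and 48.2 RPKM in shRNA2 libraries, against 25.5 and 25.8 RPKM in the control. All 4 knockdown libraries lay far above the control. Its log2 fold change was 1.06 (SE 0.11, limma adjusted p = 0.00318) with shRNA1 and 0.96 (SE 0.14, adjusted p = 0.00675) with shRNA2, and the hairpins differed by -0.10 (95% interval -0.37 to 0.17). SCARB2, the receptor that carries glucocerebrosidase to lysosomes, stood at 10.5 and 12.6 RPKM in shRNA1 libraries and at 4.64 and 4.54 RPKM in shRNA2 libraries, against 5.78 and 6.34 RPKM in the control. The shRNA1 libraries lay above and the shRNA2 libraries below both controls. SCARB2 rose with shRNA1 (log2 fold change 0.87, SE 0.14, adjusted p = 0.00989), and its value with shRNA2 was -0.36 (SE 0.15, adjusted p = 0.139). In the authors' deposited table the shRNA2 value of SCARB2 is -0.39 with an adjusted p of 0.012. LAMP1, the partner of LAMP2, stood at 89.0 and 87.4 RPKM in shRNA1 libraries and at 83.8 and 89.2 RPKM in shRNA2 libraries, against 60.8 and 70.1 RPKM in the control. Its log2 fold change was 0.43 (SE 0.12, adjusted p = 0.0493) with shRNA1 and 0.40 (SE 0.15, adjusted p = 0.113) with shRNA2. The call of LAMP1 was lost without either shRNA1 library or without control A (adjusted p 0.183 to 0.25), and that of SCARB2 without shRNA1 B (adjusted p = 0.0788).

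The other membrane proteins did not pass against the control. CD63 had 193 and 187 RPKM with shRNA1 and 262 and 187 RPKM with shRNA2, against 174 and 119 RPKM in the control. Every knockdown library of CD63 was above both controls, which lay far apart. Its log2 fold change was 0.40 (SE 0.19, limma adjusted p = 0.164) with shRNA1 and 0.62 (SE 0.25, adjusted p = 0.126) with shRNA2. The authors' deposited table calls CD63 higher with both (adjusted p of 0.0228 and 0.000169 by a count model). NPC1, the cholesterol exporter of the lysosomal membrane, lay between 3.62 and 4.81 RPKM in all 6 libraries. MCOLN1, the calcium channel mucolipin, stood at 4.97 and 4.74 RPKM in shRNA1 libraries and at 6.99 and 6.38 RPKM in shRNA2 libraries, against 5.35 and 5.90 RPKM in the control. For MCOLN1 the log2 fold change was -0.19 (SE 0.14, limma adjusted p = 0.345) with shRNA1 and 0.23 (SE 0.15, adjusted p = 0.325) with shRNA2.

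Of the 8 proteases and peptidases, 3 rose with shRNA1 (CTSA, CTSS and TPP1) and 5 with shRNA2 (the same 3 with CTSB and CTSD). Over all genes, 9.99% rose with shRNA1 and 8.12% with shRNA2. CTSA, a serine carboxypeptidase that also protects beta-galactosidase and neuraminidase, stood at 91.5 and 78.6 RPKM in shRNA1 libraries and at 103 and 95.8 RPKM in shRNA2 libraries, against 47.5 and 42.9 RPKM in the control. The groups did not overlap, and the log2 fold change was 0.90 (SE 0.13, limma adjusted p = 0.00693) with shRNA1 and 1.13 (SE 0.15, adjusted p = 0.00548) with shRNA2. TPP1, a tripeptidyl peptidase, stood at 64.1 and 62.6 RPKM in shRNA1 libraries and at 90.9 and 112 RPKM in shRNA2 libraries, against 42.9 and 42.7 RPKM in the control. The shRNA2 libraries were the highest, at 1.23 on the log2 scale (SE 0.16, adjusted p = 0.00541), beside 0.56 (SE 0.11, adjusted p = 0.0166) with shRNA1. The cysteine protease cathepsin B (CTSB) stood at 11.3 and 10.4 RPKM in shRNA1 libraries and at 31.6 and 28.7 RPKM in shRNA2 libraries, against 11.7 and 11.7 RPKM in the control. Only the shRNA2 libraries stood apart: CTSB rose 2.51-fold with shRNA2 (log2 fold change 1.33, SE 0.14, adjusted p = 0.00268), and its value with shRNA1 was -0.10 (SE 0.12, adjusted p = 0.584).

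CTSS, a cysteine protease that trims the MHC class II invariant chain, stood at 26.7 and 32.9 RPKM in shRNA1 libraries and at 26.7 and 26.2 RPKM in shRNA2 libraries, against 18.1 and 15.8 RPKM in the control. It rose with both hairpins, with log2 fold changes of 0.79 (limma adjusted p = 0.0141) with shRNA1 and 0.63 (adjusted p = 0.027) with shRNA2. CTSD, the aspartic protease whose window holds CACGTG, stood at 93.4 and 70.2 RPKM in shRNA1 libraries and at 131 and 114 RPKM in shRNA2 libraries, against 77.1 and 69.0 RPKM in the control. Its shRNA2 libraries were the highest (log2 fold change 0.74, SE 0.16, adjusted p = 0.0236), and the shRNA1 libraries overlapped the control. CTSC, which activates granule serine proteases, showed almost the same level throughout, between 39.1 and 50.1 RPKM in the 6 libraries. CTSH and CTSZ did not pass with either hairpin (adjusted p 0.0727 to 0.911). The authors' deposited table, by a count model, calls CTSH higher with shRNA1 (adjusted p of 0.0147) and CTSZ higher with shRNA2 (2.07e-05). The calls of CTSA and TPP1 with shRNA1 were lost without shRNA1 A (adjusted p = 0.0518 and 0.143), those of CTSS and TPP1 without shRNA1 B (adjusted p = 0.105 and 0.167), and that of TPP1 also without either control library (adjusted p = 0.0636 and 0.0525). With shRNA2, CTSD lost its call without shRNA2 A (adjusted p = 0.0628) and CTSS without either shRNA2 library (adjusted p = 0.0539 and 0.0612).

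**Figure D2:**
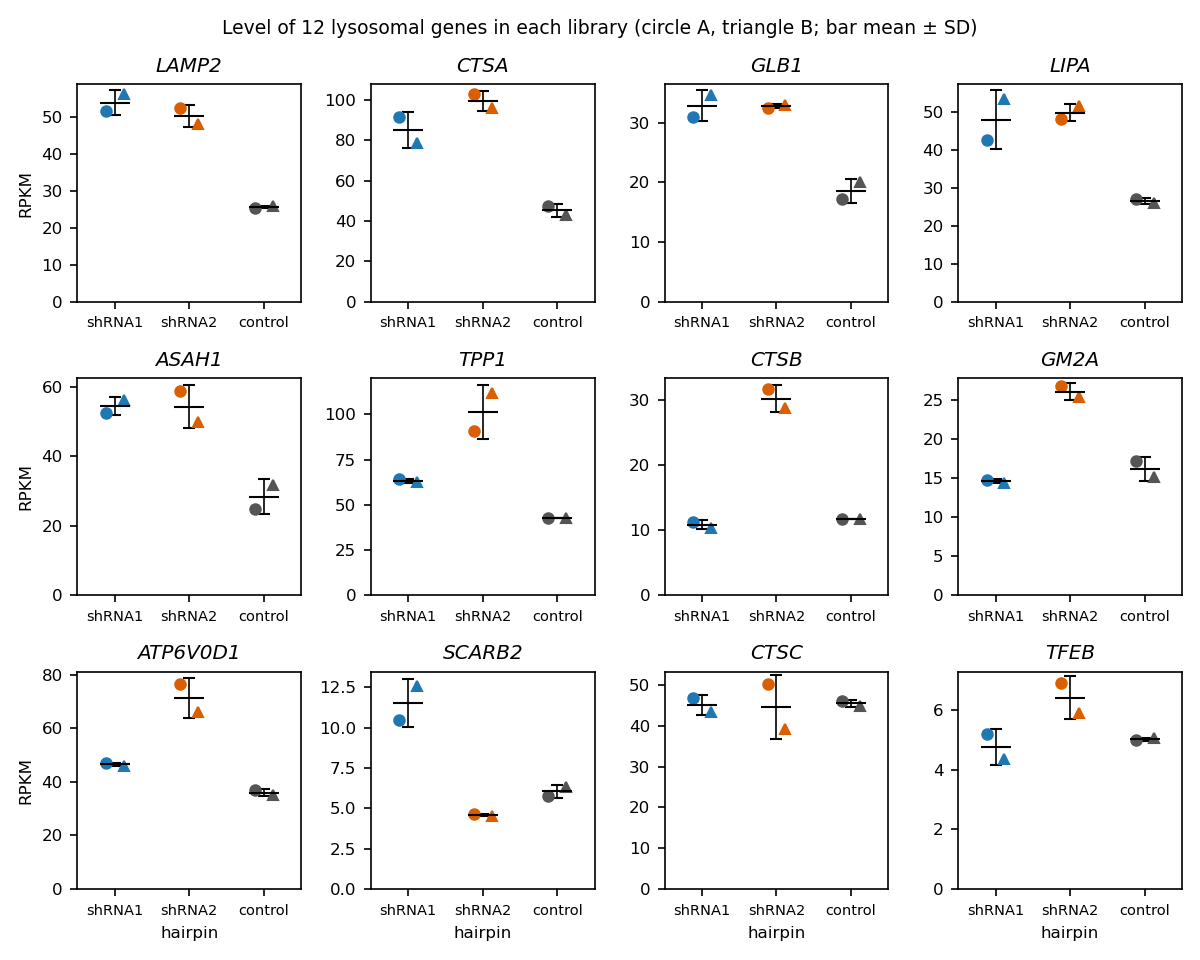
RPKM of 12 members in each library (circle, library A; triangle, library B), with bars at the group mean ± SD (n = 2), for shRNA1, shRNA2 and control from left to right. LAMP2 lies near 50 RPKM with both hairpins and near 25.6 RPKM in the control, CTSB is high with shRNA2 only, and CTSC overlaps in all groups.

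Glycan-degrading enzymes gave 3 that rose of 8 tested with shRNA1 (beside 9.99% of all genes) and 5 of 9 with shRNA2 (beside 8.12%). The 5 include IDUA, which was tested only through its shRNA2 level. GLB1, the beta-galactosidase that removes terminal galactose, stood at 31.0 and 34.7 RPKM in shRNA1 libraries and at 32.5 and 33.0 RPKM in shRNA2 libraries, against 17.2 and 20.0 RPKM in the control. All knockdown libraries lay above the control, and the log2 fold change was 0.81 with both hairpins (SE 0.13 and limma adjusted p = 0.00947 with shRNA1, SE 0.14 and adjusted p = 0.0133 with shRNA2). MAN2B1, an alpha-mannosidase, stood at 59.7 and 54.3 RPKM in shRNA1 libraries and at 68.6 and 71.5 RPKM in shRNA2 libraries, against 39.2 and 38.9 RPKM in the control. It rose with both, with log2 fold changes of 0.54 (SE 0.11, adjusted p = 0.0216) with shRNA1 and 0.84 (SE 0.14, adjusted p = 0.0103) with shRNA2. GAA, the acid alpha-glucosidase that digests glycogen and carries the full palindrome at 2 places, stood at 12.3 and 11 RPKM in shRNA1 libraries and at 10.0 and 8.25 RPKM in shRNA2 libraries, against 7.17 and 6.26 RPKM in the control. The order was shRNA1, shRNA2, control without overlap, yet only shRNA1 passed (log2 fold change 0.76, SE 0.14, adjusted p = 0.014), and shRNA2 gave 0.42 (SE 0.16, adjusted p = 0.122). HEXA, the alpha chain of beta-hexosaminidase, stood at 30.0 and 29.3 RPKM in shRNA1 libraries and at 50.6 and 45.1 RPKM in shRNA2 libraries, against 34.1 and 30.7 RPKM in the control. HEXA rose with shRNA2 (log2 fold change 0.55, SE 0.15, adjusted p = 0.0423), and its shRNA1 libraries were the lowest of the 6.

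GUSB, a beta-glucuronidase, stood at 35.4 and 33.7 RPKM in shRNA1 libraries and at 46.6 and 41.6 RPKM in shRNA2 libraries, against 29.5 and 26.6 RPKM in the control. It rose with shRNA2 (log2 fold change 0.64, SE 0.15, limma adjusted p = 0.0277), beside 0.30 with shRNA1 (adjusted p = 0.115). Pseudogenes related to GUSB make its value uncertain, since reads may be shared. IDUA, an iduronidase, was low, with 0.459 and 0.555 RPKM with shRNA1 and 1.60 and 2.20 RPKM with shRNA2, against 0.454 and 0.578 RPKM in the control. It passed the filter of a mean of 1 RPKM with shRNA2 only, through its level there, and rested on 69 and 98 reads with shRNA2, against 18 and 26 reads in the control. Its log2 fold change of 1.23 (adjusted p = 0.0144) is therefore given as a description. GLA, NAGLU and NEU1, an alpha-galactosidase, an N-acetylglucosaminidase and a sialidase, did not pass with either hairpin (adjusted p 0.168 to 0.556). The authors' deposited table, by a count model, calls GLA and NEU1 higher with shRNA2 (adjusted p of 0.0034 and 0.0285) and NAGLU with neither. Without shRNA1 B, the shRNA1 calls of GLB1, MAN2B1 and GAA were lost (adjusted p 0.0756 to 0.114), and without shRNA1 A those of MAN2B1 and GAA (adjusted p = 0.143 and 0.0934). HEXA lost its shRNA2 call without shRNA2 A (adjusted p = 0.0609).

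The 7 lipid-degrading enzymes and helpers had the highest median log2 fold change among the role groups with both hairpins. It was 0.53 with shRNA1 (4 rose) and 0.90 with shRNA2 (6 rose), beside -0.0005 and -0.0045 over all genes, of which 9.99% and 8.12% rose. LIPA, the acid lipase that frees cholesterol from its esters, stood at 42.6 and 53.6 RPKM in shRNA1 libraries and at 48.3 and 51.6 RPKM in shRNA2 libraries, against 27.2 and 26.0 RPKM in the control. ASAH1, acid ceramidase, stood at 52.6 and 56.3 RPKM in shRNA1 libraries and at 58.8 and 49.9 RPKM in shRNA2 libraries, against 24.8 and 31.9 RPKM in the control. Both genes were higher in every knockdown library. The log2 fold change of LIPA was 0.83 (SE 0.14, limma adjusted p = 0.0105) with shRNA1 and 0.90 (SE 0.14, adjusted p = 0.00829) with shRNA2. That of ASAH1 was 0.94 (SE 0.14, adjusted p = 0.00843) with shRNA1 and 0.93 (SE 0.17, adjusted p = 0.0148) with shRNA2. PSAP, the precursor of the saposins that lift lipids to their enzymes, stood at 113 and 105 RPKM in shRNA1 libraries and at 142 and 123 RPKM in shRNA2 libraries, against 83.7 and 70.0 RPKM in the control. It rose with both hairpins, with log2 fold changes of 0.50 (SE 0.13, adjusted p = 0.0393) with shRNA1 and 0.78 (SE 0.17, adjusted p = 0.0236) with shRNA2.

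NPC2, which hands cholesterol to NPC1, stood at 37.4 and 39.6 RPKM in shRNA1 libraries and at 66.1 and 61.7 RPKM in shRNA2 libraries, against 32.3 and 21.6 RPKM in the control. NPC2 rose 2.39-fold with shRNA2 (log2 fold change 1.26, SE 0.20, limma adjusted p = 0.00914), beside 0.53 (SE 0.19, adjusted p = 0.0851) with shRNA1. GM2A, the activator that presents GM2 ganglioside to hexosaminidase, stood at 14.8 and 14.4 RPKM in shRNA1 libraries and at 26.8 and 25.3 RPKM in shRNA2 libraries, against 17.2 and 15.1 RPKM in the control. Only shRNA2 was above the control (log2 fold change 0.68, SE 0.14, adjusted p = 0.022). SMPD1, acid sphingomyelinase, was low, with 4.35 and 3.45 RPKM with shRNA1 and 7.24 and 5.92 RPKM with shRNA2, against 3.17 and 3.31 RPKM in the control, and rose with shRNA2 (log2 fold change 0.92, SE 0.17, adjusted p = 0.014). PPT1, a palmitoyl-protein thioesterase, was among the most abundant members, with 131 and 155 RPKM with shRNA1 and 153 and 129 RPKM with shRNA2, against 89.0 and 101 RPKM in the control. It rose with shRNA1 (log2 fold change 0.58, SE 0.14, adjusted p = 0.0294), and shRNA2 gave nearly the same value without passing (0.57, SE 0.17, adjusted p = 0.0581). Without shRNA1 B the shRNA1 calls of LIPA, ASAH1, PSAP and PPT1 were lost (adjusted p 0.0756 to 0.272), and without shRNA1 A those of PSAP and PPT1 (adjusted p = 0.22 and 0.0939). Leaving out control B ended the shRNA1 call of PSAP (adjusted p = 0.137), and leaving out control A that of PPT1 (adjusted p = 0.117).

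TFEB, a transcription factor of lysosomal genes, was low and did not pass in any comparison. It stood at 5.19 and 4.35 RPKM in shRNA1 libraries and at 6.93 and 5.92 RPKM in shRNA2 libraries, against 4.99 and 5.07 RPKM in the control. Its log2 fold change was -0.07 (SE 0.15, limma adjusted p = 0.744) with shRNA1 and 0.32 (SE 0.16, adjusted p = 0.195) with shRNA2. RNA levels do not show the location or phosphorylation of TFEB, by which it is mainly controlled.

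Among the 6 proton pump genes, 1 rose with shRNA1 (beside 9.99% of all genes) and 3 rose with shRNA2 (beside 8.12% of all genes). ATP6V0D1, a V0 subunit whose window holds TCACGTGA, stood at 47.0 and 46.0 RPKM in shRNA1 libraries and at 76.6 and 66.1 RPKM in shRNA2 libraries, against 36.8 and 35.0 RPKM in the control. Every knockdown library was above the control, at 0.98 on the log2 scale (SE 0.15, limma adjusted p = 0.00806) with shRNA2 and 0.37 (SE 0.11, adjusted p = 0.0573) with shRNA1. ATP6V1A, the catalytic subunit of V1, stood at 20.1 and 20.6 RPKM in shRNA1 libraries and at 18.7 and 15.6 RPKM in shRNA2 libraries, against 13.1 and 13.2 RPKM in the control. It rose with shRNA1 (log2 fold change 0.61, SE 0.11, adjusted p = 0.015), a call that was lost without either shRNA1 library (adjusted p = 0.0907 and 0.141), and shRNA2 gave 0.37 (SE 0.15, adjusted p = 0.133). ATP6V1B2, the partner of ATP6V1A in the V1 ring, stood at 108 and 103 RPKM in shRNA1 libraries and at 126 and 118 RPKM in shRNA2 libraries, against 79.5 and 82.0 RPKM in the control. It rose with shRNA2 (log2 fold change 0.59, adjusted p = 0.0365), beside 0.39 with shRNA1 (adjusted p = 0.0527). ATP6AP2, the prorenin receptor that assists pump assembly, stood at 88.8 and 81.4 RPKM in shRNA1 libraries and at 139 and 115 RPKM in shRNA2 libraries, against 85.0 and 81.6 RPKM in the control. It rose with shRNA2 (log2 fold change 0.60, adjusted p = 0.0456, lost without shRNA2 A at adjusted p = 0.0646), beside 0.03 with shRNA1. ATP6V1H and ATP6AP1 did not pass with either hairpin (adjusted p 0.153 to 0.842). The authors' deposited table, by a count model, calls ATP6AP1 higher with shRNA1 (adjusted p of 0.0472) and ATP6V1H with neither.

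The hairpins were also compared with each other, in a fit of all 6 libraries, to ask where the lysosomal response differed. Of 36 tested members, 9 were higher with shRNA2, 1 was lower and 26 did not pass, beside 4.78% of all genes called higher and 6.10% called lower (10.9% in either direction). The libraries of the hairpins did not overlap, shRNA2 higher, for 20 of 36 members (27.4% of all genes) and, shRNA2 lower, for 3 (31.2% of all genes). CTSB differed most, by 1.43 on the log2 scale (SE 0.12, limma adjusted p = 0.000905), which is 2.70 times higher with shRNA2. SCARB2 differed in the other direction, by -1.24 (SE 0.14, 95% interval -1.55 to -0.92, adjusted p = 0.00163). GM2A (0.81, adjusted p = 0.00564), HEXA (0.68, adjusted p = 0.0118), TPP1 (0.67, adjusted p = 0.0178) and ATP6V0D1 (0.61, adjusted p = 0.0189) were higher with shRNA2. So were NPC2, SMPD1, ATP6AP2 and NAGLU (log2 fold changes 0.53 to 0.72, adjusted p 0.0313 to 0.039). CTSB and SCARB2 were the members that kept this call in all 16 alternatives. Leaving out any 1 hairpin library gave fewer called members than the 10 with all libraries, and fewer calls over all genes as well. The median log2 difference of members was 0.24 without shRNA1 A and 0.23 without shRNA1 B. It was 0.14 without shRNA2 A and 0.36 without shRNA2 B, against 0.22 with all libraries.

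For GLB1, ASAH1 and LIPA, which rose with both hairpins, no difference between the hairpins passed. The log2 difference of shRNA2 over shRNA1 had a 95% interval of -0.29 to 0.29 for GLB1, -0.35 to 0.34 for ASAH1 and -0.25 to 0.38 for LIPA. These intervals hold a zero difference but leave room for small ones, so equal levels are not shown. SCARB2, LAMP1, GAA, PPT1 and ATP6V1A were called with shRNA1 only. Of these 5, only SCARB2 passed the test of the difference between the hairpins. The difference of GAA was -0.34 (95% interval -0.67 to -0.01, limma adjusted p = 0.18), and the adjusted p of LAMP1, PPT1 and ATP6V1A was 0.264 to 0.961.

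**Figure D3:**
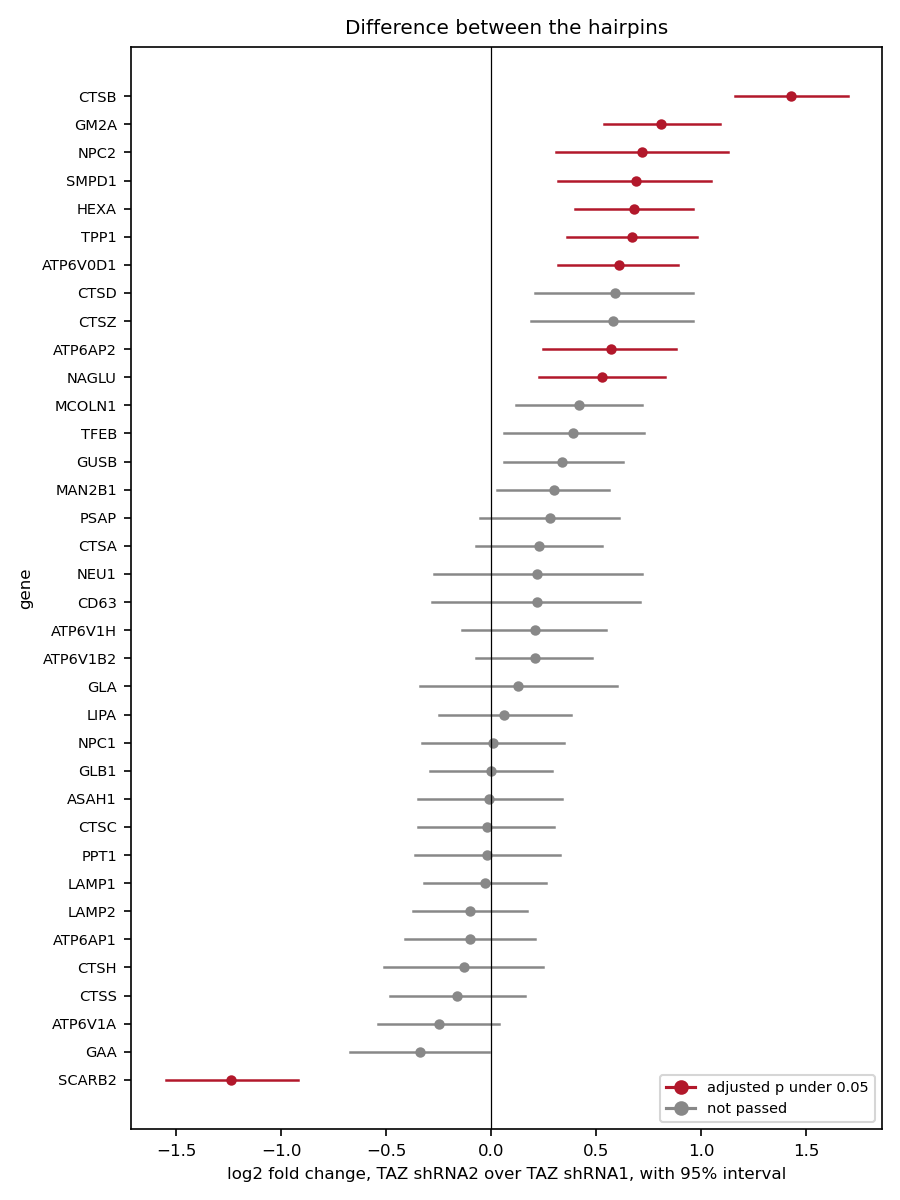
Log2 fold change of each tested member in shRNA2 over shRNA1, with unadjusted 95% intervals, ordered by size, with members called after adjustment in red. CTSB lies highest at 1.43 and SCARB2 lowest at -1.24.

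Of the 5 members with TCACGTGA in the window (ATP6V0D1, CTSA, GAA, LAMP1 and MCOLN1), 3 rose with shRNA1 and 2 with shRNA2. Of the 22 without it, 6 rose with shRNA1 and 11 with shRNA2. Over all genes, 9.99% rose with shRNA1 and 8.12% with shRNA2. The difference between members with and without the motif was not tested. Of the members with the full palindrome, GAA rose with shRNA1 (log2 fold change 0.76, beside 0.42 with shRNA2, which did not pass), and MCOLN1 passed with neither hairpin (-0.19 with shRNA1 and 0.23 with shRNA2).

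The other genes of the pathway were grouped in 6 lists of 178 genes, of which 172 were listed. Of 31 other lysosomal hydrolases tested, 17 rose and 0 fell with shRNA1, and 18 rose and 0 fell with shRNA2. Over all genes, 9.99% and 8.12% rose. None of the 31 was lower at an unadjusted p under 0.05, and limma-voom found 0 that fell with either hairpin. Their median log2 fold change was 0.47 with shRNA1 and 0.65 with shRNA2, near that of the member set. Both lists were chosen with earlier results of these data known, so this nearness is no independent support. ARSB, an arylsulfatase that acts on dermatan sulfate, stood at 11.8 and 13.0 RPKM in shRNA1 libraries and at 10.4 and 11.8 RPKM in shRNA2 libraries, against 3.72 and 4.53 RPKM in the control. ARSB rose with both hairpins (log2 fold change 1.49, limma adjusted p = 0.00238, and 1.33, adjusted p = 0.00421).

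Of the 18 tested pump genes outside the member set, 2 rose and 2 fell with shRNA1, and 2 rose and 3 fell with shRNA2. The share that rose was 11.1% with each hairpin, beside 9.99% and 8.12% of all genes, of which 8.58% and 7.61% fell. Their median log2 fold change was -0.02 with shRNA1, where 9 of 18 values were higher, and 0.27 with shRNA2, where 13 of 18 were higher, and the difference from the member set was not tested. WDR7 and DMXL2, partners in the complex that helps assemble the pump, were above the control in every knockdown library. DMXL2 rose with shRNA1 (log2 fold change 0.77, limma adjusted p = 0.0312), beside 0.58 with shRNA2 (adjusted p = 0.0823). WDR7 rose with shRNA2 (log2 fold change 0.75, adjusted p = 0.0296), beside 0.58 with shRNA1 (adjusted p = 0.06). Both calls were lost without 1 library, DMXL2 without either shRNA1 library or control A (adjusted p up to 0.204) and WDR7 without either shRNA2 library (adjusted p up to 0.073). TCIRG1, the V0 a3 subunit, stood at 17.2 and 16.8 RPKM in shRNA1 libraries and at 35.0 and 39.2 RPKM in shRNA2 libraries, against 30.7 and 24.0 RPKM in the control. It fell with shRNA1 (log2 fold change -0.66, limma adjusted p = 0.024) and was 1.10 higher on the log2 scale with shRNA2 than with shRNA1 (adjusted p = 0.00336). ATP6V0C and ATP6V1F were chosen after their values were seen. The proteolipid gene ATP6V0C had 37.5 and 30.6 RPKM with shRNA1 and 84.3 and 78.3 RPKM with shRNA2, against 70.6 and 63.0 RPKM in the control, and fell with shRNA1 (log2 fold change -0.97, adjusted p = 0.00704). The V1 gene ATP6V1F had 132 and 127 RPKM with shRNA1 and 38.3 and 30.2 RPKM with shRNA2, against 151 and 120 RPKM in the control, and fell with shRNA2 (log2 fold change -1.96, adjusted p = 0.00245). TCIRG1 lost its shRNA1 call without either shRNA1 library or without control A (adjusted p up to 0.147), and ATP6V0C lost it without shRNA1 B (adjusted p = 0.0632).

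Of 26 other membrane proteins and transporters tested with shRNA1, 9 rose (34.6%) and 2 fell. Of 25 tested with shRNA2, 6 rose (24.0%) and 0 fell. In that comparison 2 were lower at an unadjusted p under 0.05, and limma-voom found 0 that fell. Over all genes, 9.99% rose and 8.58% fell with shRNA1, and 8.12% rose and 7.61% fell with shRNA2. LAPTM5, a lysosomal membrane protein of blood cells, stood at 216 and 208 RPKM in shRNA1 libraries and at 264 and 252 RPKM in shRNA2 libraries, against 119 and 122 RPKM in the control (log2 fold change 0.82 and 1.10, limma adjusted p = 0.007 and 0.00683). CD68, a LAMP-family protein of monocytes and macrophages, stood at 103 and 84.7 RPKM in shRNA1 libraries and at 168 and 137 RPKM in shRNA2 libraries, against 47.8 and 28.2 RPKM in the control (log2 fold change 1.34 and 2.03, adjusted p = 0.013 and 0.00436). Both were higher in every knockdown library, but without either shRNA1 library neither kept its shRNA1 call (adjusted p up to 0.0701 for LAPTM5 and 0.0715 for CD68). Among the 24 genes of TFEB relatives and nutrient sensing, 2 rose (8.33%) and 1 fell with shRNA1 and 1 rose with shRNA2 (4.17%). These counts are too small to tell the shares from the 9.99% and 8.12% of all genes that rose. Of the 24 values, 14 were higher with shRNA1 and 16 with shRNA2 (median log2 fold change 0.09 and 0.19). TFEC, a relative of TFEB found in myeloid cells, stood at 8.35 and 9.04 RPKM in shRNA1 libraries and at 4.90 and 4.35 RPKM in shRNA2 libraries, against 1.48 and 1.27 RPKM in the control. It rose with both hairpins (log2 fold change 2.30, adjusted p = 0.00102, and 1.45, adjusted p = 0.00424) and differed between the hairpins, shRNA2 over shRNA1, by -0.84 (adjusted p = 0.00944, up to 0.12 without 1 library). The TFEC calls against the control held without any single library. In trafficking, 9 of 29 sorting and fusion genes rose with shRNA1 (31.0%, beside 9.99% of all genes) and 2 with shRNA2 (6.90%, beside 8.12% of all genes). In autophagy, 3 of 37 rose with shRNA1 (8.11%, beside 9.99% of all genes) and 2 with shRNA2 (5.41%, beside 8.12% of all genes). These counts too are small beside the background. Of the 37 values, 26 were higher with shRNA1 and 29 with shRNA2 (median log2 fold change 0.15 and 0.23). NBR1, a cargo receptor, rose with both (log2 fold change 0.60 and 0.72), though its shRNA1 call was lost when an shRNA1 library was left out.

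**Figure D4:**
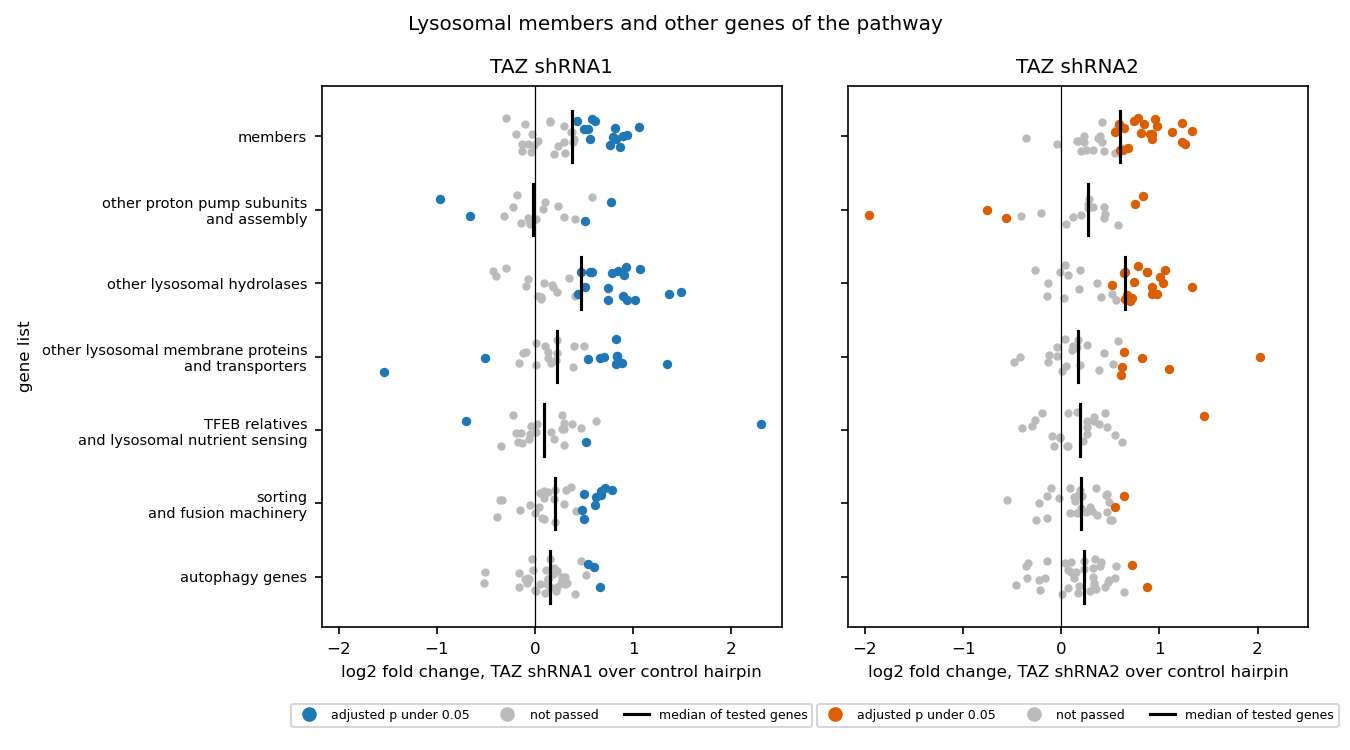
Log2 fold change against the control hairpin of each tested gene, as a point, for the member set and the 6 other pathway lists, in 1 panel per hairpin, coloured where the adjusted p is under 0.05, with the median of each list as a bar. The other hydrolases (medians 0.47 and 0.65) lie near the members (0.37 and 0.60), and the other pump subunits (-0.02 and 0.27) spread to both sides.

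The summed RPKM of monocyte and of neutrophil granule markers was higher in every knockdown library than in the control. The summed level of 14 monocyte markers was 5387 to 5976 RPKM with shRNA1 and 5904 to 7833 RPKM with shRNA2, against 2026 to 3127 RPKM in the control. The median log2 fold change was 0.26 with shRNA1 and 0.78 with shRNA2. Of the 11 tested, 4 rose and 3 fell with shRNA1, and 5 rose and 0 fell with shRNA2 (0 lower at an unadjusted p under 0.05, and 0 fell by limma-voom). The summed level of 9 neutrophil granule markers was 1773 to 2047 RPKM with shRNA1 and 1853 to 2191 RPKM with shRNA2, against 1098 to 1492 RPKM in the control. Of the 7 tested, 2 rose and 3 fell with shRNA1, and 1 rose and 3 fell with shRNA2, where 4 of 7 values were lower. Their median log2 fold change was 0.21 with shRNA1, in the direction of the sum, and -0.34 with shRNA2, against it. Over all genes, 9.99% rose and 8.58% fell with shRNA1, and 8.12% rose and 7.61% fell with shRNA2. The labels call the line a leukemic stem cell line. The 4 stem and progenitor markers that were listed summed to 45.7 to 50.8 RPKM with shRNA1 and 39.5 to 47.1 RPKM with shRNA2, against 33.4 to 34.5 RPKM in the control. CD34 and PROM1 were not analysed here. Of the 3 tested, 1 rose and 0 fell with shRNA1. With shRNA2, 0 rose and 1, GATA2, fell, against the direction of the sum. The 4 listed lymphoid, erythroid and platelet markers summed to at most 2.29 RPKM in any library, with CD3D at 0 in shRNA1 B and ITGA2B at 0 in shRNA2 A. The part of these cell types in the lysosomal values was not tested.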

How the data were processed

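RNA of 6 libraries (3 groups of 2) was sequenced from a directional library kit, per the labels' protocols. Per the submitters' processing notes, the build was hg19 and the tools were HTSeq 0.6.1p2, TopHat2 2.0.11, Trim Galore 0.4.0, DESeq 1.18.0 and edgeR 3.8.6, each without a stated role. A table for each hairpin gives the RPKM of every library, per the file headers. Beside these, the deposited tables give a score (a likelihood ratio), a p-value and adjusted p-value, the log2 fold change, and the mean log2 CPM, all as the authors computed them. The control RPKM values were identical in both tables. Each had 13004 rows; 21 date-like symbols were renamed by gene ID and 2 repeats dropped, and 0 columns were unused. The strand setting of the counting is not given in the sources used here, so reads of overlapping or antisense genes cannot be told apart (IDUA overlaps another gene).

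RPKM values are whole multiples of 1 read, and whole reads came out for 12953 genes (99.6%, within 0.05 reads), from which depth was taken. The other 49 were scaled by the average log2 CPM. Counts limit the precision of low genes only.

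Values were analysed as log2(RPKM + 0.5), for genes whose mean over the libraries of the fit reached 1 RPKM, with limma 3.58.1 (R 4.3.3, prior variance trend, two-sided, Benjamini-Hochberg adjustment over all tested genes, threshold 0.05). Every adjusted p is limma's unless credited to the authors. Fold changes on this scale understate those of low genes. In the main fits, a hairpin was compared with the control in their own 4 libraries, and the hairpins with each other in a fit of all 6. The code was tested on simulated data. Alternatives were other pseudocounts, filters, scalings, sets of libraries and variance settings, voom on recovered reads, a block on the library letters, and each library left out in turn. The fits with 1 library left out kept the other libraries of all 3 groups, also for a hairpin against the control. Where that left 1 library in a group, it was assumed to vary like the other groups. Named genes are TAZ, all members, and up to 4 genes per other pathway list with the smallest larger p of both comparisons with the control, those singled out later being marked. Of the genes the rule names outside the member set, some are not reported here. Members and lists were chosen with earlier results of these data known. Promoter windows are RefSeq's (GRCh38.p14), another build than hg19, and served for sequence and motifs only.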

Additional observations from a re-analysis of the deposited data

Results flagged for a closer look

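The response of 10 members differed between the hairpins by the test of shRNA2 over shRNA1. The log2 fold change was 1.43 for CTSB, 0.81 for GM2A, 0.72 for NPC2, 0.69 for SMPD1, 0.68 for HEXA, 0.67 for TPP1, 0.61 for ATP6V0D1, 0.57 for ATP6AP2, 0.53 for NAGLU and -1.24 for SCARB2. For NAGLU the adjusted p of limma was 0.039, although it passed against the control with neither hairpin. SCARB2 rose with shRNA1 and lay below the control in both shRNA2 libraries, a value that did not pass (log2 fold change -0.36, limma adjusted p = 0.139). MCOLN1 passed against the control with neither hairpin. It lay above both control libraries in the shRNA2 libraries and below both in the shRNA1 libraries, with a difference of 0.42 (95% interval 0.12 to 0.72) that did not pass (limma adjusted p = 0.0766). TAZ itself stood at 1.47 and 2.13 RPKM with shRNA2, against 4.02 and 4.10 RPKM with shRNA1 (limma adjusted p = 0.00801 for the difference), so level of knockdown and hairpin sequence cannot be told apart in these differences.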

How the results depend on the processing

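The number of called members depended on single libraries with shRNA1 and between the hairpins. With shRNA1, 14 members were called, and leaving out 1 library gave 2 to 12 (6 without shRNA1 A, 2 without shRNA1 B). LAMP2 alone of the 14 kept its call in all 14 alternatives. With shRNA2, 20 were called. Leaving out an shRNA2 library gave fewer called members, and leaving out a control library gave more. Over all genes, calls went down without shRNA2 B and up without shRNA2 A or either control library. Of the 20, 14 kept their call in all 14 alternatives. SMPD1 kept it in the 13 alternatives in which it passed the filter, and CTSD, CTSS, HEXA and ATP6AP2 lost it in at least 1. IDUA was tested in 10 and called in each. Apart from the fit without a filter, these tested it only through its own shRNA2 level, so they do not show a stable call. Between the hairpins, 10 were called. Leaving out a hairpin library gave fewer and leaving out a control library gave more, both among members and over all genes. The median log2 fold change ranged over 0.25 to 0.41 with shRNA1, 0.47 to 0.71 with shRNA2 and 0.14 to 0.36 between the hairpins with 1 library left out. The fits with 1 library left out held the other libraries of all 3 groups, unlike the main fits of a hairpin against the control. A fit of all 6 libraries called 14 members with shRNA1 and 22 with shRNA2. With the gene length trend removed, 21 members were called with shRNA1, 26 with shRNA2 (25 rose, and SCARB2 fell) and 15 between the hairpins. Calls over all genes were then 2087, 2515 and 1801, against 1971, 1676 and 1160 in the main fits. Quantile normalization called 17, 23 and 13 members, beside 2121, 1858 and 1341 over all genes. A group with 1 library left rests on fewer samples, and the causes were not tested.

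No called member changed sign in any alternative. Members near 0 did, without passing. With quantile normalization, CTSC became 0.04 and CTSZ 0.01 with shRNA1, CTSC 0.05 with shRNA2, and between the hairpins CTSC 0.00, GLB1 0.03, ASAH1 0.01 and PPT1 0.01. With the gene length trend removed, CTSZ became 0.16 and ATP6V1H 0.02 with shRNA1, and between the hairpins CTSC 0.03, GLB1 0.02, ASAH1 0.02 and PPT1 0.00. With voom on recovered reads, GLB1 and ASAH1 became 0.01 between the hairpins. With 1 library left out, the shRNA1 values ranged from -0.07 to 0.04 for CTSC, -0.05 to 0.36 for CTSD, -0.19 to 0.13 for CTSZ, -0.17 to 0.55 for NEU1, -0.19 to 0.04 for TFEB, -0.19 to 0.10 for ATP6V1H and -0.03 to 0.09 for ATP6AP2. CTSC ranged from -0.22 to 0.14 with shRNA2. Between the hairpins the ranges were -0.07 to 0.02 for LAMP1, -0.03 to 0.46 for CD63, -0.06 to 0.08 for NPC1, -0.20 to 0.15 for CTSC, -0.33 to 0.08 for CTSH, -0.10 to 0.35 for GLA, -0.08 to 0.08 for GLB1, -0.10 to 0.23 for LIPA, -0.12 to 0.11 for ASAH1 and -0.14 to 0.10 for PPT1. The cause was not tested.

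Libraries of different groups share a letter, which no label ties to a day or culture. The A minus B differences of the groups correlated at 0.26 (shRNA1 and control), 0.42 (shRNA2 and control) and 0.37 (shRNA2 and shRNA1) over 10660 genes, and 2 pairs do not establish a pairing. With a block on the letter, 19 members were called with shRNA1, 29 with shRNA2 (28 rose, and SCARB2 fell) and 15 between the hairpins, while calls over all genes went to 3780, 4170 and 2396, against 1971, 1676 and 1160 without it. The SD of the A minus B difference was 0.21 with shRNA1, 0.29 with shRNA2 and 0.34 in the control on the log2 scale. This difference correlated with log2 gene length at -0.14 with shRNA1, -0.38 with shRNA2 and -0.40 in the control. Depth limited IDUA, which had as few as 18 reads.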
